A study of Mus musculus with 26 samples.

Results

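The regions described here are the H3K4me3 regions of E14 mouse embryonic stem cells, and the measurement is how much of each region's H3K4me3 chromatin was recovered by a second immunoprecipitation for H3K27me3. All 21970 regions of the study's E14 H3K4me3 annotated probe table were taken, and 12486 of them lay within 1.5 kb of a RefSeq start site and are called promoter regions. The series holds 26 libraries, 9 of them from E14 cells, and 4 were compared: 2 libraries of the K4-K27 reChIP (H3K4me3 pulled down first, H3K27me3 second) and 2 in-line total H3K4me3 libraries, each a small share of the same first pull-down set aside before the second antibody was added. The cells were wild-type, non-clonal E14 cells grown without feeders in serum and LIF, and neither arm carried a deletion or a drug. The replicates were cultures of different passages taken on separate days, and each was sequenced in its own batch, so replicate and batch cannot be told apart. The remaining E14 libraries were 2 of total H3K27me3, 2 of the reciprocal K27-K4 reChIP and 1 mock reChIP with IgG in both steps, which exists for replicate 1 only. Clones 57 and 58, each a single wild-type clone derived from E14, were sequenced in another batch and gave a second set of K4-K27 reChIP and total H3K4me3 libraries.

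Nucleosomes at active promoters carry trimethylation of lysine 4 on histone H3, which trithorax-type methyltransferases deposit, often at CpG islands. Polycomb repressive complex 2 deposits trimethylation of lysine 27, which marks repressed genes. In embryonic stem cells many promoters of developmental regulators carry both marks and are called bivalent, and they are held at low expression but poised for later activation or silencing. An ordinary ChIP cannot tell a nucleosome with both marks from a mixture of alleles or cells with either mark, whereas a sequential ChIP recovers fragments on which both are present. Weaker binding of the first-step H3K4me3 antibody to H3K4me2 has been described as well.

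The promoters printed here show what lay at either end of the comparison, and their sequences are given because CpG density differed between the kept and the depleted regions. Each is the 250 bases upstream of the start site from the RefSeq promoter table (GRCm38.p6), written 5′ to 3′ in lower case with every CpG dinucleotide in capitals. The Clec2l, Wnt5b and Egr4 windows belong to regions that rose in the reChIP, and the Rps23rg1, Nudt13 and Golph3l windows to regions that fell.
Clec2l (chr6:38662819-38663068, plus strand): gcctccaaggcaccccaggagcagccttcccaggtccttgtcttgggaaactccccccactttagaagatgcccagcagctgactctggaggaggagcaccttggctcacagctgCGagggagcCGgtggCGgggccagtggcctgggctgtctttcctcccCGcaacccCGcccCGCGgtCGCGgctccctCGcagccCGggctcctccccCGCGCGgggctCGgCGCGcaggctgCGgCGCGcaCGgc
Wnt5b (chr6:119544348-119544597, minus strand): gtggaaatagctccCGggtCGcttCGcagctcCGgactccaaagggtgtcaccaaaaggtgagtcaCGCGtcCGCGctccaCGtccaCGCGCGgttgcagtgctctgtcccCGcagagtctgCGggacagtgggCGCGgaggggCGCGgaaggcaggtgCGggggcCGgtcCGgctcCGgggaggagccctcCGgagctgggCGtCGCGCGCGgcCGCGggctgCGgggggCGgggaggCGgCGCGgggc
Egr4 (chr6:85513590-85513839, minus strand): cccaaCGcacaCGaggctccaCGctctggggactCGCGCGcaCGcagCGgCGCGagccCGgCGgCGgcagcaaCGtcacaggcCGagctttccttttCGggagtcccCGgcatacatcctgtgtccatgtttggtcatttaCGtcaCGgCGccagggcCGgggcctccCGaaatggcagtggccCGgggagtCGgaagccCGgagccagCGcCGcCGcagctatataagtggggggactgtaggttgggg
Rps23rg1 (chr8:3567748-3567997, plus strand): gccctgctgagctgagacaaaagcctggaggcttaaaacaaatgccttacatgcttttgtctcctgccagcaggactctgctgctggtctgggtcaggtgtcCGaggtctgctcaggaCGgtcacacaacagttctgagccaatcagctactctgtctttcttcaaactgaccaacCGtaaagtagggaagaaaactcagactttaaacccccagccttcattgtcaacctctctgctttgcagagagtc
Nudt13 (chr14:20294440-20294689, plus strand): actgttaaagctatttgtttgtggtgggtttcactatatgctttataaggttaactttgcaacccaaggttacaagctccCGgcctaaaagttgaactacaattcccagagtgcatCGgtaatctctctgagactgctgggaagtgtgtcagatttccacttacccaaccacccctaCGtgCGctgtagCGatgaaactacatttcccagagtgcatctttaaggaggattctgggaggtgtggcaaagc
Golph3l (chr3:95588684-95588933, plus strand): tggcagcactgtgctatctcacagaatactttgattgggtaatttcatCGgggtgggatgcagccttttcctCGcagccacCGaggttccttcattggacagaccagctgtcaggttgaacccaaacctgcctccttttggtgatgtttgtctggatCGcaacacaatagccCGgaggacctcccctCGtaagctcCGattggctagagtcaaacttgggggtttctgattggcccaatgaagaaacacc
The Clec2l window held 21 CpG dinucleotides, that of Wnt5b 35 and that of Egr4 28. The Rps23rg1 window held 3, that of Nudt13 5 and that of Golph3l 7. Their GC content was 72.4%, 75.2% and 68.0% for the former and 50.4%, 45.6% and 51.6% for the latter. Over all such windows the CpG numbers overlapped, with quartiles of 10 and 25 in regions that rose and 7 and 20 in regions that fell. The printed contrast is larger than that between the medians of 17 and 13.

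The total H3K4me3 libraries held 13705151 and 29588817 reads and the reChIP libraries 9941719 and 34441552. In the replicate 1 reChIP 9.18% of reads fell in the H3K4me3 regions, against 18.9% in replicate 2, 9.86% and 13.3% in total H3K4me3 and 3.89% in the IgG library. The replicate 1 reChIP held 0 reads in 760 regions and the replicate 2 reChIP in 1 region, so low values in replicate 1 rest on very few reads. The reChIP libraries correlated with each other at r = 0.86 and the in-line totals at r = 0.51 (across regions, which are not independent). Unless stated otherwise, values below are log2 reads per kb, scaled to library size, with the library's median over the 21970 regions subtracted, so a value of 0 is the median region of that library. A difference is reChIP minus total H3K4me3, averaged over the 2 pairs, and it says how a region was recovered relative to the median region, not how much bivalent chromatin it held. Before centring, the per-region difference had a median of -1.25 in replicate 1 and -0.22 in replicate 2.

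Recovery in the second step varied widely among the H3K4me3 regions. A region is called where the adjusted p of limma's blocked test was under 0.05 and the difference was over 1 on the log2 scale, which is over 2-fold. Of all 21970 regions, 5454 (24.8%) were called higher in the reChIP than in total H3K4me3 and 3318 (15.1%) lower. Unadjusted p-values were under 0.05 for 6957 regions with a positive and 6022 with a negative difference. The median standard error was 0.37, and both replicates had the same sign at 5448 of the higher and 3291 of the lower regions. The paired differences of replicates 1 and 2 correlated at r = 0.84 across regions (rho = 0.82), 4585 regions exceeded 1 in both and 2037 were below -1 in both, while 174 exceeded 1 in opposite directions. The spread was wider in the shallower replicate, with an SD of 1.54 in replicate 1 and 1.19 in replicate 2. The split between higher and lower calls depends on the scale: higher calls were 62.2% of all calls here, 99.6% on the deposited values without centring (2539 higher, 9 lower), 55.3% after quantile normalisation, 50.5% with voom on recovered reads, 73.8% when centred on regions without H3K27me3 and 77.5% without the replicate block. Without the replicate 1 or the replicate 2 total H3K4me3 library, in fits with no block, the higher calls dropped to 527 or 233 and the lower calls to 0 or 3. The lower calls below therefore state a rank against the median region, and they pass or miss the threshold with the scale.

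**Figure D1:**
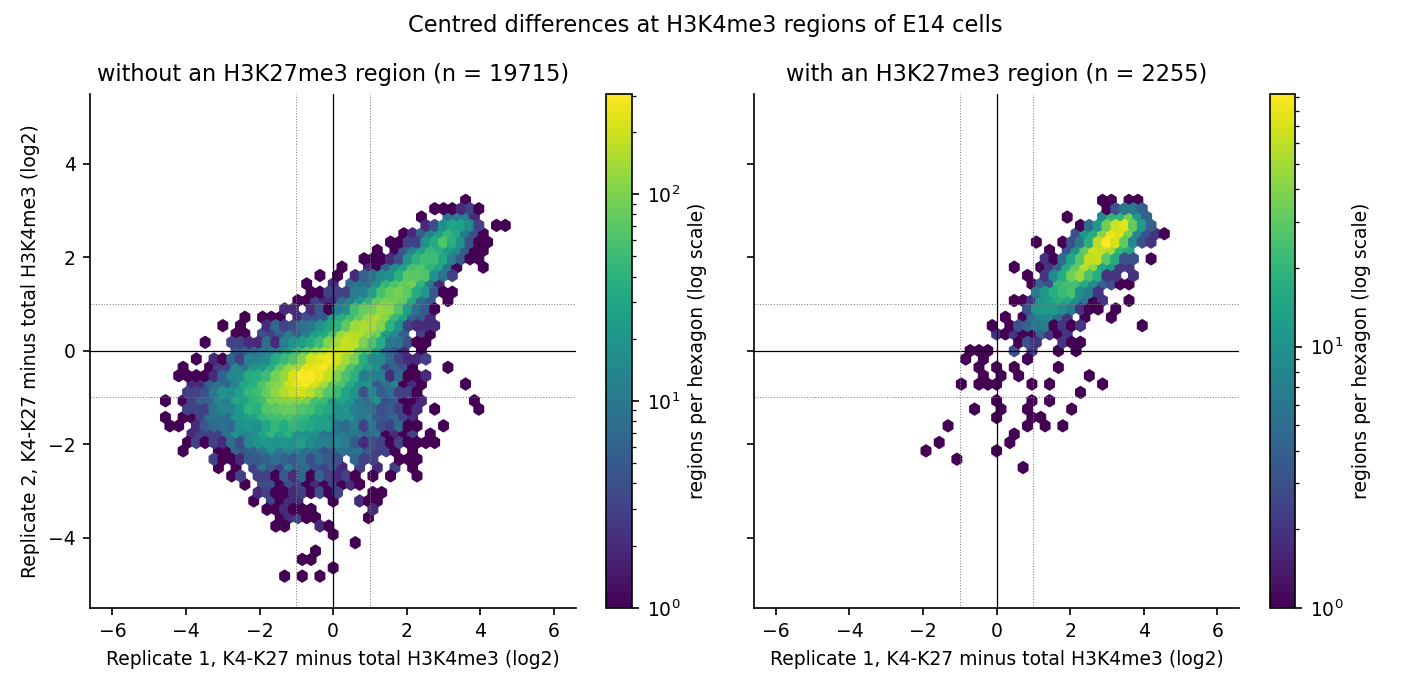
Paired log2 difference (K4-K27 reChIP minus in-line total H3K4me3, library medians removed) of replicate 1 on the horizontal and replicate 2 on the vertical axis. Hexagons are coloured by the number of H3K4me3 regions on a log scale, and calls are not shown. The left panel holds the 19715 regions without an H3K27me3 region and the right panel the 2255 with one. Median differences in the right panel are 2.76 in replicate 1 and 2.11 in replicate 2.

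Regions marked by H3K27me3 in the total libraries were kept. Of 2255 regions that overlapped a region of the E14 H3K27me3 probe table, 2137 (94.8%) were called higher and 4 (0.177%) lower, with a median difference of 2.44. Among promoter regions the figures were 1549 of 1595 (97.1%) higher and 1 lower. Of the 19715 regions with no H3K27me3 region, 3317 (16.8%) were higher and 3314 (16.8%) lower, with a median of -0.30. Kept regions therefore included more without than with a called H3K27me3 region. The total H3K27me3 signal itself, which was not used for the calls, stood at a median of 1.36 at the higher regions in replicate 1 and 1.43 in replicate 2, against -0.22 and -0.25 at the regions not called and -0.63 and -0.64 at the lower regions. Leaving out every region that overlapped an H3K27me3 region, the higher regions still had medians of 1.10 and 1.16. Total H3K27me3 exceeded the IgG library at 79.5% and 71.9% of the higher regions and at 16.9% and 13.1% of the lower regions, on deposited values without centring. The reciprocal K27-K4 reChIP followed the same order, with medians of 1.73 and 2.14 at higher, -0.16 and -0.19 at uncalled and -1.05 and -1.62 at lower regions. Across regions the difference correlated with total H3K27me3 at r = 0.69 and 0.67 in the 2 replicates and with the K27-K4 reChIP at 0.79 and 0.86, all on values of the same chromatin preparations and widths.

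Levels against the IgG library are given on deposited values, without centring. Total H3K4me3, which enters the difference, stood above the IgG library by medians of 1.35 and 1.56 at higher, 1.41 and 1.90 at uncalled and 1.36 and 1.83 at lower regions. The reChIP enters the difference too, so the order of its levels, called regions and read shares follows in part from the calls. Against the IgG library and on the same scale, the reChIP stood at 2.51 and 3.34 at higher regions, 0.03 and 1.64 at uncalled regions and -1.63 and 0.62 at lower regions. In replicate 1 the reChIP was thus near the mock level at the median uncalled region and below it at the median lower region, whereas in replicate 2 it was above the mock level at 97.2% of uncalled and 77.9% of lower regions. A region of the study's K4-K27 reChIP table overlapped 99.9% of the higher, 69.2% of the uncalled and 23.8% of the lower regions, so a region without a higher call could still overlap a called reChIP region. Of the reads within H3K4me3 regions, the higher regions took 26.8% and 23.1% in total H3K4me3 and 70.9% and 56.8% in the reChIP, against 27.6% in IgG.

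**Figure D2:**
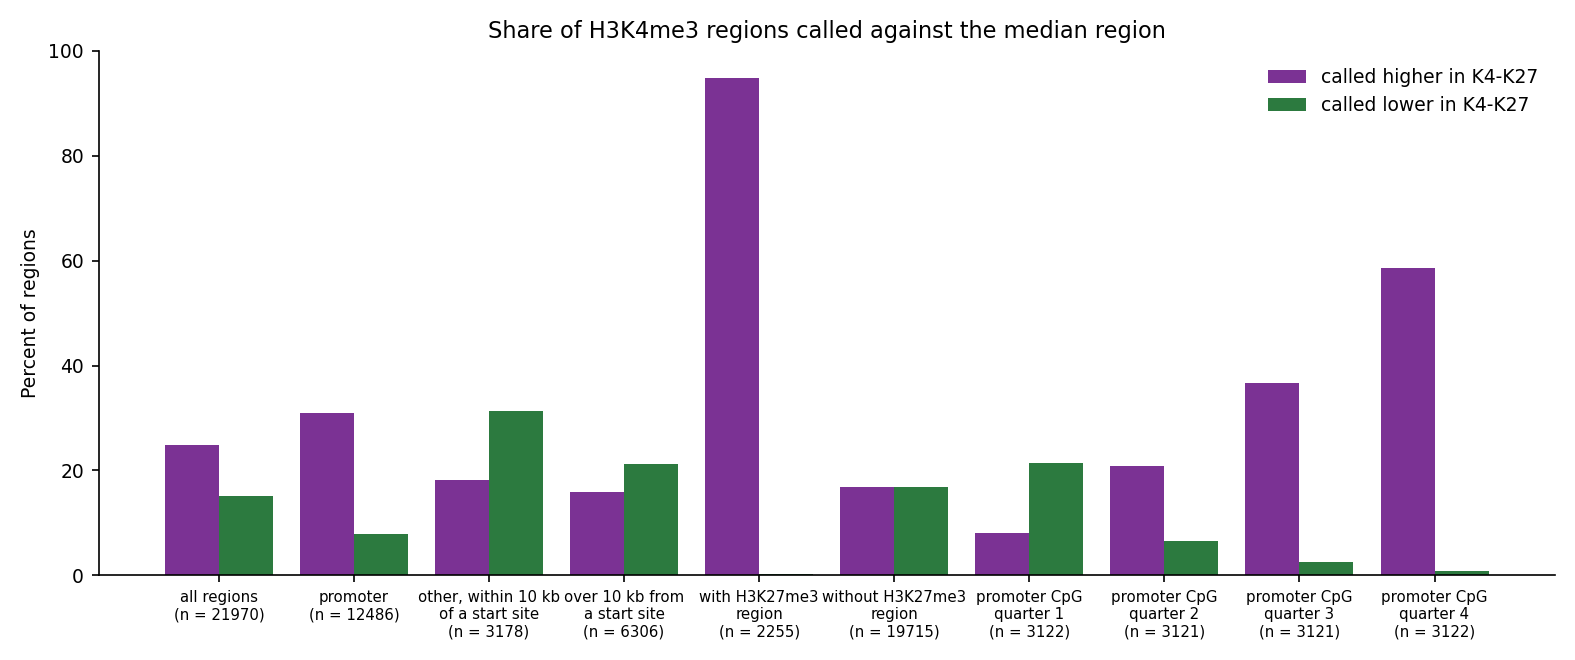
Share of regions called higher and lower by class of region, with the number of regions in each class. Regions with an H3K27me3 region stand at 94.8% higher, and the share called higher falls from CpG-rich to CpG-poor regions while the share called lower rises.

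Position and base composition differed between kept and depleted regions. Promoter regions were called higher in 31.0% (3876) and lower in 7.85% (980) of cases, and the 9484 regions elsewhere in 16.6% (1578) and 24.7% (2338). Among the latter, the 3178 regions between 1.5 and 10 kb from a start site were lower in 31.3% of cases and the 6306 regions farther away in 21.3%. The position of the lower calls depends on the scale. After quantile normalisation most of the 2723 lower regions were promoter regions, and the share called lower was larger at promoters than elsewhere. Without the lowest quartile of values most of the 2318 lower regions were promoter regions too. On deposited values and with voom most lower regions lay elsewhere, as in the fit reported. The median CpG density was 4.22 per 100 bp in higher, 2.69 in uncalled and 1.48 in lower regions. In promoter regions sorted into 4 equal classes by CpG density, with limits of 2.77, 3.6 and 4.71 CpG per 100 bp, the share called higher was 8.01%, 20.9%, 36.7% and 58.6% from the poorest to the richest class. The share called lower went the other way, 21.4%, 6.57%, 2.6% and 0.833%. CpG density and H3K27me3 were not separated here, and neither was tested as a source of the calls. By width, the narrowest of 4 equal classes of promoter regions was called higher in 38.5% of cases and the widest in 21.2%, but over all regions the narrowest class was called higher in 14.5%, the middle classes in 31.5% and 30.9% and the widest in 22.4%. By chromosome the share called higher lay between 20.8% on chromosome 17 and 29.5% on chromosome 18, leaving aside the 3 regions on Y, none of them called higher.

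Among 250-base promoter windows, the median number of CpG dinucleotides was 17 for the 3766 windows in higher regions, 17 for the 8620 in uncalled regions, 13 for the 981 in lower regions and 3 for the 19450 with no H3K4me3 region. CpG number at the start site thus did not separate kept from uncalled promoters, although density over the whole region did. The ETS-type motif CCGGAAG, searched on both strands, was present in 5.97% of windows in higher regions, 16.4% in uncalled and 17.0% in lower regions, and in 6.9% of all 32817 windows. The TATA box TATAAA was present in 5.23%, 4.92% and 7.03% of these classes and in 12.4% of all windows. Of the 7 motifs searched, the GC box GGGCGG was present in 64.9%, 60.6% and 48.2% of the classes and in 32.7% of all windows. CCAAT was present in 29.3%, 37.0% and 38.5%, and in 33.8% of all windows. A match describes the window only.

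At the level of genes, 13930 had a promoter region, of which 4146 (29.8%) were called higher and 1017 (7.3%) lower, with a median difference of 0.04 over all genes. Without the replicate block 4070 genes were higher and 414 lower. Where a gene had several promoter regions, the one with the highest mean total H3K4me3 stood for it, and 4358 genes shared their region with another gene and cannot be told apart from it.

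Among called promoters past 1 in both replicates and with at least 30 reads on average, the 15 with the largest increase had differences of 3.40 to 3.68. They belonged to Nfia, Clec2l, Wnt5b, Lox, Egr4, Dpp10, Grm4, Nup62cl, Zbtb10, Pcdh8, Slc9a2, Zfp804a, Podxl2, Tmem114 and Wnt3a. Secreted signals (Wnt5b, Wnt3a), transcription factors (Nfia, Egr4), a protocadherin (Pcdh8), a glutamate receptor (Grm4) and the collagen-crosslinking enzyme lysyl oxidase (Lox) are among them. The Nfia region (mm10 chr4:97776901-97778850), at the gene for nuclear factor I A, held -0.94 and -0.41 in total H3K4me3 and 3.69 and 2.32 in the reChIP. Its total was below the median region in both libraries and its reChIP far above it, from 25 and 100 reads in the totals and 189 and 761 in the reChIP. The difference was 3.68 (SE 0.43, adjusted p = 1.85e-14, limma). At Clec2l (chr6:38662351-38664000), the first promoter printed above, total H3K4me3 was -0.49 and -0.15 and the reChIP 3.93 and 2.49, a difference of 3.53 (SE 0.48). At Wnt5b (chr6:119543251-119544900), which encodes a Wnt ligand, the totals were 0.01 and -0.49 and the reChIP 4.01 and 2.55, a difference of 3.52 (SE 0.50). At Egr4 (chr6:85511101-85514250), an immediate-early zinc finger factor, the totals were 0.77 and 0.23 and the reChIP 4.72 and 3.24, a difference of 3.48 (SE 0.65). In all 15, both reChIP values exceeded both totals. Of the 15, 12 overlapped an H3K27me3 region. Nfia, Clec2l and Nup62cl did not, though total H3K27me3 was above the median region in both replicates at each of them (0.81 and 0.83 at Nfia, 1.56 and 2.21 at Clec2l, 0.26 and 0.36 at Nup62cl). Their CpG density ran from 5.0 to 10.7 per 100 bp. All 15 were called under each scaling and without the block, as were the 10 of them that stayed in the test when total H3K4me3 had to exceed IgG by 1. With both the block and the replicate 1 or replicate 2 total H3K4me3 library dropped, 3 or 2 were called.

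**Figure D3:**
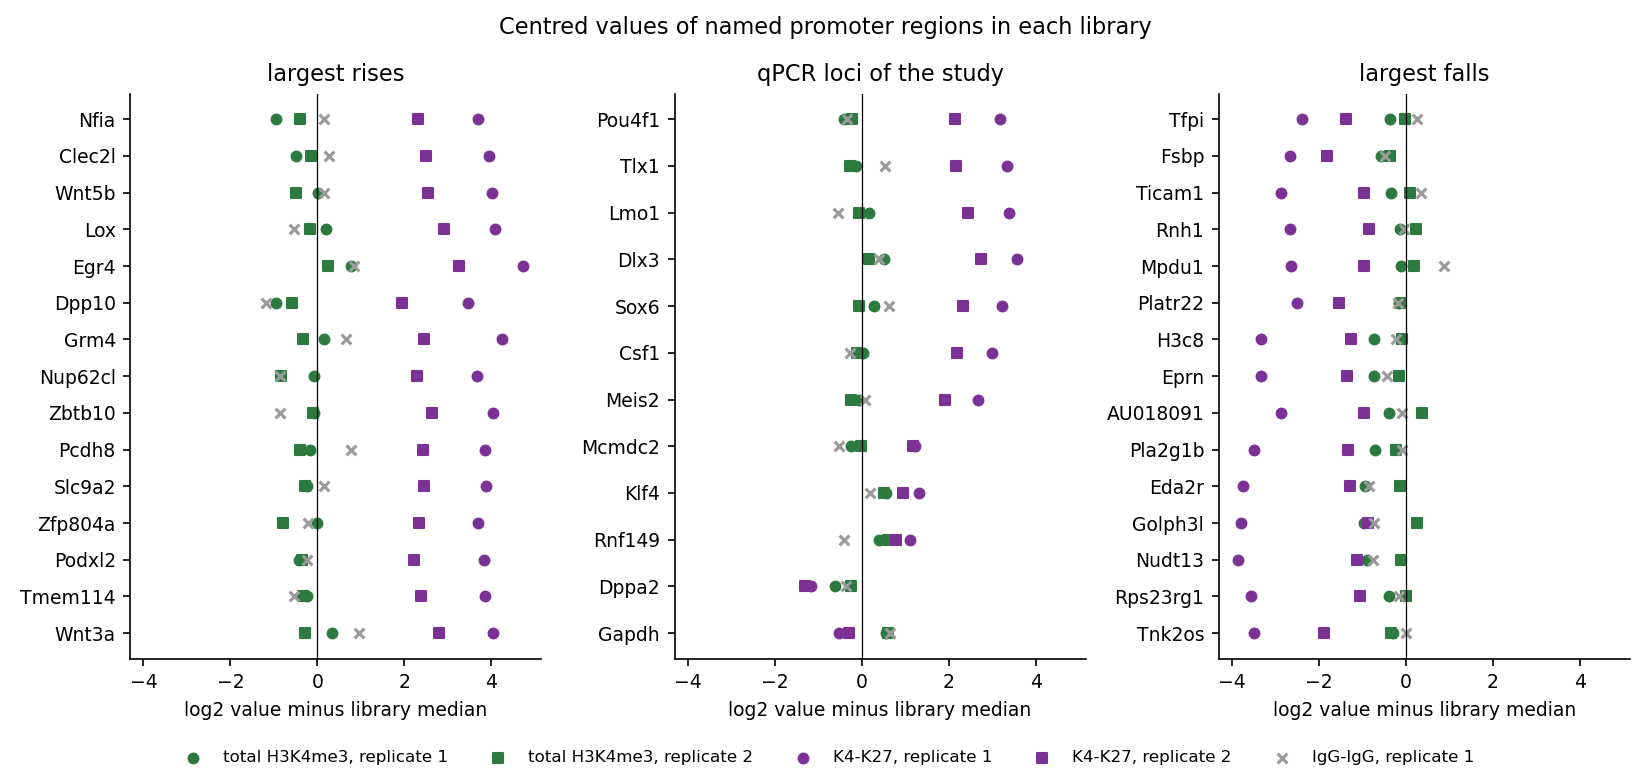
Centred log2 values of named promoters in each E14 library, 1 point per library, for the in-line total H3K4me3 and the K4-K27 reChIP. In the 15 promoters of largest increase both reChIP points lie to the right of both totals, and in 14 of the 15 of largest decrease both lie to the left.

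Genes that the study assayed by qPCR had a promoter region in 8 of 10 bivalent cases, and 7 of these were kept. They were matched by gene symbol, so each value is that of the promoter region and not of the amplified fragment. At Tlx1, a homeobox factor (chr19:45149551-45151950), the totals were -0.13 and -0.28 and the reChIP 3.34 and 2.17, a difference of 2.96 (SE 0.45, adjusted p = 2.18e-09, limma). Pou4f1, a POU-homeodomain factor of sensory neurons, differed by 2.97, the LIM-only factor Lmo1 by 2.86, Dlx3 by 2.81, Sox6 by 2.68 and the cytokine gene Csf1 by 2.64. Mcmdc2, a meiotic gene, differed by less, 1.32 (adjusted p = 4.31e-05, limma), with totals of -0.24 and -0.01 and reChIP values of 1.22 and 1.17, and it was not called higher in the clones. Rnf149, an E3 ubiquitin ligase gene, had totals of 0.41 and 0.61 and reChIP values of 1.11 and 0.80. Its difference of 0.44 missed the threshold (SE 0.33, adjusted p = 0.249, limma). Meis2, a homeobox gene that the study assayed as an H3K27me3-marked control, not as a bivalent locus, had an H3K4me3 region with totals of -0.05 and -0.24 and reChIP values of 2.68 and 1.91, and was higher by 2.44. At Gapdh, the glycolytic gene used as an H3K4me3-only locus (chr6:125162551-125169450), the totals were 0.55 and 0.60 and the reChIP -0.52 and -0.28. Both reChIP values lay below both totals, and the difference of -0.98 passed on p (0.00151 adjusted, limma) but not on size. Klf4 (0.60) and Dppa2 (-0.80) were not called, and Dppa4 and Gm6116 had no promoter region in the table.

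**Figure D4:**
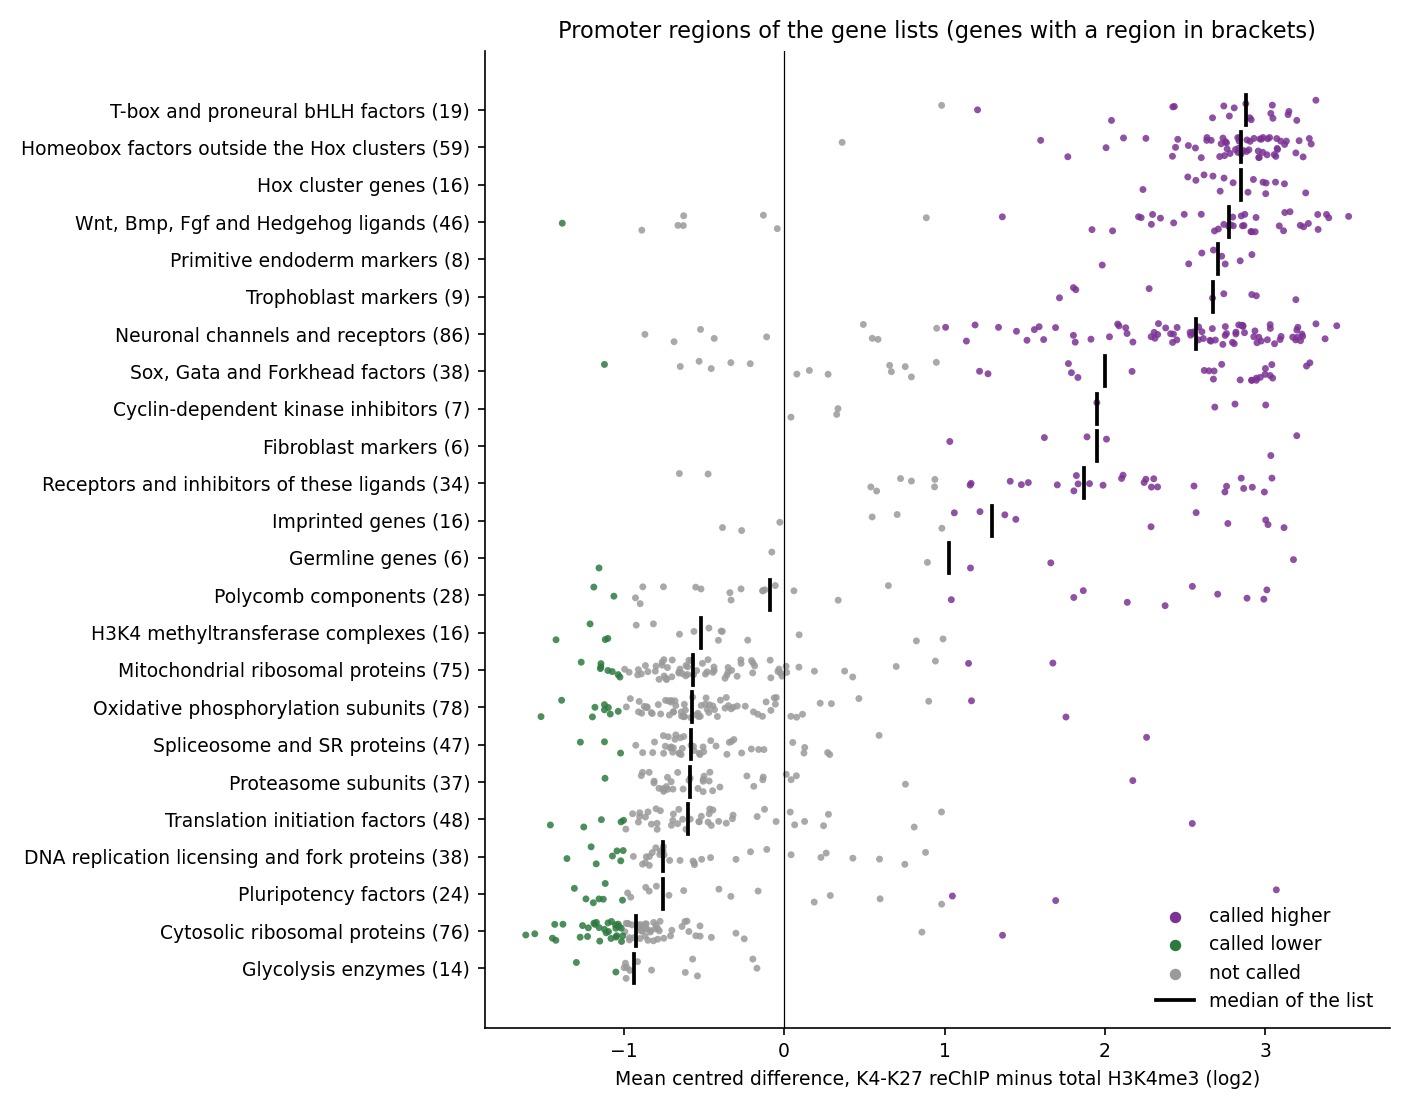
Log2 difference of each gene with a promoter region, by gene list, with the list's median. Medians of the homeobox, T-box and bHLH, ligand, receptor and neuronal lists lie between 1.87 and 2.88, and those of housekeeping genes lie below 0.

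Hox, other homeobox, T-box and bHLH, and neuronal genes were mostly kept where they had an H3K4me3 region, read against 29.8% of all genes. The lists were assembled with earlier results of these data known, so their counts describe the genes and are not independent evidence. All 16 of 39 Hox cluster genes with a region were higher, with a median of 2.85 and a range of 2.24 to 3.25. At Hoxb8, which patterns the body axis, the totals were -0.17 and -0.61 and the reChIP 3.65 and 2.08, a difference of 3.25 (SE 0.44). Of 59 other homeobox genes with a region, 58 were higher, also with a median of 2.85, and the exception was Six4 at 0.36 (adjusted p = 0.344, limma). Of 19 T-box and bHLH factors 18 were higher (median 2.88), the exception being Tbx3, which also acts in embryonic stem cells, at 0.98 (adjusted p = 0.0136, limma, short of the size limit). Of 86 neuronal genes 77 were higher (median 2.57) and 0 lower.

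Signalling genes and factor families that include genes active in stem cells were split, read against 29.8% higher and 7.3% lower among all genes. Of 46 Wnt, Bmp, Fgf and hedgehog ligand genes with a region, 38 were higher (median 2.78) and 1 was lower, Gdf3, a TGF-beta family ligand expressed in pluripotent cells, at -1.38 (adjusted p = 0.00924, limma). Nodal, which signals in the early embryo, stood at -0.89 and was not called. Receptors and inhibitors of these pathways were higher in 26 of 34 cases (median 1.87), but in 15 on deposited values and 13 after quantile normalisation. Of 38 Sox, Gata and Forkhead genes 24 were higher (median 2.00) and 1 lower, Sox15 at -1.12. Sox2, a core pluripotency factor, had totals of 0.28 and 0.58 and reChIP values of -0.02 and 0.21, and its difference of -0.33 was not called.

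Markers of other lineages were kept and those of stem cells mostly were not. All 8 primitive endoderm genes with a region (median 2.70), all 9 trophoblast genes (2.67) and all 6 fibroblast genes (1.95) were higher. On deposited values 7, 6 and 2 of these were called higher, and after quantile normalisation 6, 5 and 4. Gata6, a primitive endoderm factor, rose by 2.84 and Cdx2, a trophoblast factor, by 3.19. Of the defining marker sets, 8 of 8 embryonic stem cell genes had a region, as did 3 of 4 primitive endoderm, 3 of 4 trophoblast and 4 of 4 fibroblast genes, so H3K4me3 regions alone did not separate the labelled cell type from others, and a part of differentiated cells in the result was not tested. Of 24 pluripotency genes with a region, 3 were higher and 7 lower, against 29.8% and 7.3% of all genes, with a median of -0.76. At Pou5f1, which encodes Oct4 (chr17:35503051-35510250), the totals were 0.48 and 0.63 and the reChIP -0.85 and -0.27, a difference of -1.12 (SE 0.29, adjusted p = 0.000475, limma). At Nanog (chr6:122705551-122710950) the totals were 0.26 and 0.48 and the reChIP -1.17 and -0.47, a difference of -1.19 (SE 0.34). The other lower ones were Tdgf1 (-1.01), Dppa5a (-1.13), Zfp42 (-1.15), Tet1 (-1.24) and Fbxo15 (-1.31). The higher ones were Esrrb (3.07), Prdm14 (1.69) and Dppa3 (1.05). Without the replicate block 2 of the 24 were higher and 3 lower, on deposited values 1 and 0, and after quantile normalisation 2 and 9.

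Cell cycle inhibitors, imprinted genes and Polycomb genes were each divided among themselves. All 7 CDK inhibitor genes had a region and 4 were higher, Cdkn1c (3.00), Cdkn2a (2.81), Cdkn2c (2.69) and Cdkn2b (1.95), while Cdkn1a (0.34), Cdkn1b (0.33) and Cdkn2d (0.04) were not called. Of 16 imprinted genes with a region 10 were higher (6 on deposited values) and 0 lower, among them Magel2 (3.12) and the Notch-related Dlk1 (3.02), and the antisense transcript Kcnq1ot1 stood at -0.38. Of 28 Polycomb genes with a region 10 (35.7%) were higher and 2 (7.14%) lower, close to the 29.8% and 7.3% of all genes, with a median of -0.09 that turned to 0.07 when libraries were centred on regions without H3K27me3. After quantile normalisation 6 of the 28 were higher and 7 lower. Among chromobox genes of Polycomb repressive complex 1, Cbx8 (chr11:119034151-119045550) had totals of 0.27 and -0.17 and reChIP values of 3.61 and 2.26, a difference of 2.89 (SE 0.49). Cbx7 (chr15:79924951-79936200) had totals of 0.12 and 0.19 and reChIP values of -1.40 and -0.67, and fell by 1.19 (SE 0.40, adjusted p = 0.00862, limma). The Polycomb repressive complex 2 core genes Ezh2 (-0.06), Suz12 (-0.52) and Eed (-0.75) were not called, and the accessory subunit gene Mtf2 fell by 1.06. Of 16 genes of H3K4 methyltransferase complexes with a region, 0 were higher and 4 lower (median -0.52), or 2 lower without the replicate block, 0 on deposited values and 7 after quantile normalisation, read against 29.8% and 7.3% of all genes.

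The medians of housekeeping gene lists were below the median region in E14 cells. In the clones they were nearer to it, from -0.39 (glycolysis) to 0.03 (translation initiation) in clone 57 and from -0.22 to 0.18 in clone 58, and not all were below 0. Of 76 cytoplasmic ribosomal protein genes with a region 1 was higher and 30 lower, with a median of -0.93. Rpl28, a large-subunit protein gene, had totals of 0.34 and 0.49 and reChIP values of -2.03 and -0.36, a difference of -1.61 (SE 0.39), and Rps27 differed by -1.56. Medians were -0.94 for 14 glycolysis genes (2 lower, Pkm at -1.30 and Pfkl at -1.05), -0.75 for 38 DNA replication genes (7 lower), -0.58 for 78 oxidative phosphorylation genes (9 lower, 2 higher), -0.57 for 75 mitochondrial ribosomal protein genes (8 lower, 2 higher), -0.60 for 48 translation initiation genes (5 lower), -0.58 for 47 spliceosome genes (3 lower) and -0.59 for 37 proteasome genes (1 lower). From oxidative phosphorylation to the proteasome the share called lower ran from 11.5% down to 2.7%, against 7.3% of all genes. Single members went the other way, among them Psmb9, an immunoproteasome subunit gene sharing its region with Tap1 (2.17), Eif5a2 (2.55) and Srsf12 (2.26). The medians of these lists were below 0 under each scaling tried, but on the deposited values, where all genes had a median of -0.60, 0 of the 76 ribosomal protein genes passed the test for a decrease (median -1.56), whereas 53 did after quantile normalisation and 50 with voom. Quantile normalisation also called 41 of the 78 oxidative phosphorylation, 24 of the 47 spliceosome and 21 of the 37 proteasome genes lower, with 3176 of all 13930 genes, and on deposited values 0 of each list were lower.

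By the same limits, the 15 promoters with the largest decrease had differences of -2.36 to -1.70, smaller than those at the other end and from few reads. They belonged to Tnk2os, Rps23rg1, Nudt13, Golph3l, Eda2r, Pla2g1b, AU018091, Eprn, H3c8, Platr22, Mpdu1, Rnh1, Ticam1, Fsbp and Tfpi. Long non-coding RNAs (Tnk2os, Platr22), a histone H3 gene (H3c8), a Toll-like receptor adaptor (Ticam1) and the ribonuclease inhibitor (Rnh1) are among them. The Tnk2os region (chr16:32665201-32666700) had totals of -0.30 and -0.35 and reChIP values of -3.49 and -1.87, from 30 and 80 reads in the totals and 1 and 32 in the reChIP. Both reChIP values were below both totals, and the difference was -2.36 (SE 0.67, adjusted p = 0.0017, limma). Rps23rg1 (chr8:3567301-3570450), whose CpG-poor sequence is printed above, had totals of -0.40 and 0.01 and reChIP values of -3.56 and -1.05, with 2 and 119 reads in the reChIP and a difference of -2.11 (SE 0.60). Nudt13, a nudix hydrolase gene (chr14:20294551-20296500), had totals of -0.89 and -0.12 and reChIP values of -3.87 and -1.12, a difference of -1.99 (SE 0.67). At Golph3l (chr3:95588101-95589750) the totals were -0.95 and 0.26 and the reChIP -3.78 and -0.88, a difference of -1.99 (SE 0.62), with 0 and 70 reads in the reChIP. The replicate 1 reChIP held at most 3 reads at 13 of the 15 promoters, and the replicate 2 reChIP 32 to 235. None of the 15 overlapped an H3K27me3 region, and 14 of 15 had both reChIP values below both totals. Their CpG density was 0.43 to 3.02 per 100 bp. On the deposited values without centring 0 of the 15 passed the test, after quantile normalisation 3 did, without the replicate block 7 did, and 15 did with voom on recovered reads. In fits with no block, 4 passed without the replicate 1 reChIP and 0 without either total H3K4me3 library. All 15 lay in the lowest quartile of mean values over the 4 libraries, and 2 passed a limit of 2.

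Single genes carried kept and depleted regions side by side. At Esrrb, a pluripotency factor chosen for display after its values were seen, the region at an internal start site (chr12:86421151-86423850) overlapped an H3K27me3 region. Its totals were 0.28 and -0.17 and its reChIP values 3.72 and 2.53, a difference of 3.07 (SE 0.51, adjusted p = 4.3e-08, limma), and total H3K27me3 was 2.05 in both replicates. A 28800 bp region inside the gene, 44.5 to 73.3 kb downstream of that start site (chr12:86466151-86494950), had totals of 0.07 and 0.26 and reChIP values of -0.84 and -0.99, a difference of -1.07 (adjusted p = 0.0131, limma). A pair of further regions beyond it were lower by similar amounts, at -1.48 and -1.50, and the last one at -1.39 missed the threshold (adjusted p = 0.0605, limma).

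**Figure D5:**
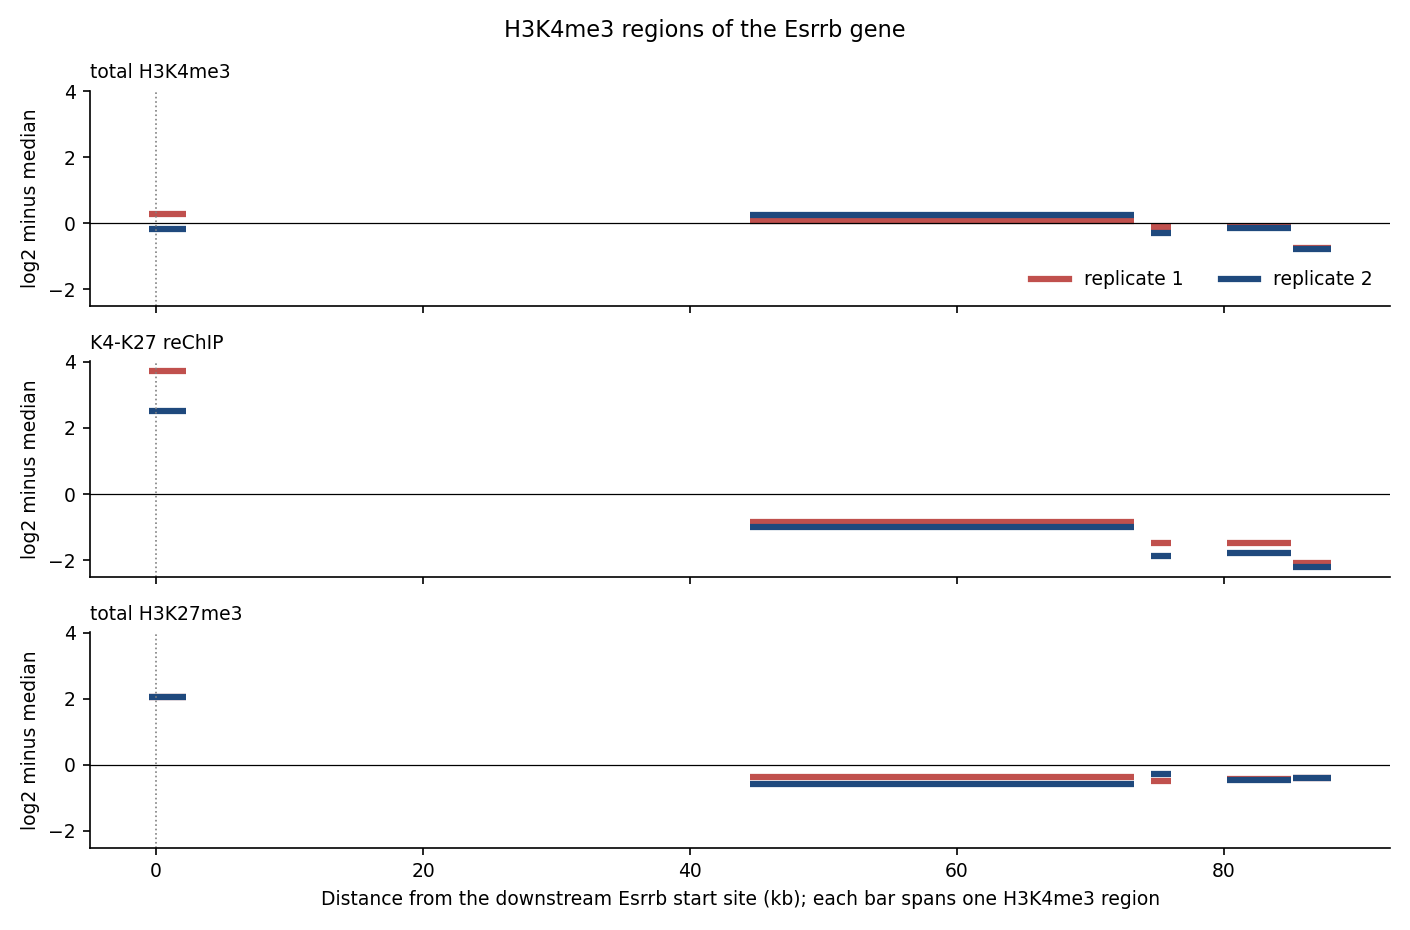
Centred log2 values in the H3K4me3 regions of the Esrrb gene, plotted by distance in kb from the internal start site, for total H3K4me3, the K4-K27 reChIP and total H3K27me3 with 1 bar per replicate. The start-site region stands above 2.5 in both reChIP libraries. In the reChIP and total H3K27me3 the regions 44.5 kb and more downstream lie below 0, while total H3K4me3 of the nearest of them is 0.07 and 0.26. Bars of replicate 2 cover those of replicate 1 where the values are equal.

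Of 940 genes with 2 or more promoter regions, 5 had both a higher and a lower one, namely Myo10, Rnf225, Sgk1, Sulf1 and Ttyh2. At Sgk1, a serum and glucocorticoid regulated kinase gene, the start site with an H3K27me3 region (chr10:21881701-21883500) differed by 2.01, the next one (chr10:21978451-21979650) by -2.02 and the last (chr10:21991201-21999450) by -0.61. At Sulf1, which edits heparan sulfate, the regions chr1:12691801-12693750 and chr1:12717751-12719700 differed by 1.66 and -1.24. At Myo10, an unconventional myosin gene, the first start site was higher by 1.28 and both later ones were lower, at -1.47 and -1.52. The lower region of Ttyh2 also held the start site of the ribosomal protein gene Rpl38.

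Few regions with an H3K27me3 region went without a higher call, although 3317 of the 5454 higher regions had none. The 4 lower regions that overlapped an H3K27me3 region lay at chr3:75432301-75432600 (Wdr49), chr9:3018001-3020100, chr9:30711001-30711300 and chr13:12764851-12765600. Among the 1595 promoter regions with H3K27me3, 45 were not called, and the lowest of them were Wsb1 (-0.23) and the region shared by C030005K06Rik and Tnfaip8 (-0.06). The 10 promoters with the highest total H3K4me3 ranged from -0.94 to 0.42 and none was called, though 9 of the 10 were called lower after quantile normalisation. Slc43a2, an amino acid transporter gene, had totals of 1.32 and 1.03 and reChIP values of 1.64 and 1.55, and the proteasome gene Psmd11 had totals of 1.02 and 1.23 and reChIP values of 1.11 and 1.17. The region at Mir101c (chr9:3035251-3038700) was also high in the IgG library (2.59) and in total H3K27me3 (3.87 and 4.46), so its level is not that of an H3K4me3 promoter alone.

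Most kept regions were also above the median region in the clones, whereas few of the depleted ones were called there. The same test in clones 57 and 58, on their own table of 31935 H3K4me3 regions, called 4016 (12.6%) higher and 463 (1.45%) lower. Of the 5454 regions higher in E14 cells, 4653 overlapped a clone region, and 2559 of these (55.0%) were called higher and 0 lower. Their median differences were 1.02 and 1.24 in the 2 clones, and 88.3% were above 0 in both, against 39.2% of the regions not called in E14 cells. Of the 3318 regions lower in E14 cells, 2116 overlapped a clone region, 40 (1.89%) were called lower, close to the background of 1.45%, and 0 higher. Their medians were -0.39 in both clones and 60.3% were below 0 in both, against 29.0% of the regions not called. The count of 40 became 94 with the clones read at the E14 regions and 25 without a clone block. Of the 15 most increased promoters, 15 exceeded 1 in both clones, with 1.74 to 2.69 in clone 57 and 1.95 to 2.77 in clone 58. Of the 15 most decreased, 13 were below 0 in both. The clones and the E14 libraries were sequenced in different batches, and a difference between them was not tested.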

How the data were processed

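The values are log2 RPKM-type values (reads per kb scaled to the library total) over H3K4me3 regions, as the authors deposited them from SeqMonk (log2 scale, no duplicate removal, regions given on mm10). The labels list Trim Galore 0.6.6, BWA 0.7.13, SAMtools 1.9, Picard 2.6.0, deepTools 3.5.0 and MACS2, and the study's methods describe peaks called with EPIC2 in each replicate against the IgG library. Which of these calls gave the regions of this table is not given in the sources used here. MNase-cut chromatin was used, and a region with 0 reads was entered as 0.9 reads by the program, which sets the floor of low values. Whole reads were recovered from the log2 values in 100% of cases (tolerance 0.05), and totals are given in the report. In the probe tables, 8 columns matched no sample and were not used.

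Each library was centred on its median. Differences were fitted with limma 3.58.1 in R 4.3.3 with the replicate as a block, trended and robust variance moderation and Benjamini-Hochberg adjustment over all 21970 regions. A call needed an adjusted p under 0.05 and a difference over 1. The pair leaves 1 residual degree of freedom, and the fit gave an infinite prior, so regions of similar level share a variance and the p-values rest on that model. The pairing comes from the design, since total and reChIP share a first pull-down, and the deviations of same-numbered libraries correlated at r = 0.34 (0.13 in the clones). Start sites were taken from RefSeq GRCm38.p6 (31603 start sites of 26180 genes).

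Named genes were the qPCR loci, the 15 largest increases and decreases among called promoters with at least 30 reads on average that passed 1 in both replicates (1 gene a region, leaving out predicted gene symbols), the 10 highest totals, and up to 3 members at each end of a gene list. Other list members, the promoter exceptions and Esrrb were named after their values were seen. The promoters, the 27 gene lists and the tests were chosen with earlier results of these data known. Alternatives covered the scaling, the block, the moderation, the thresholds, low regions, the promoter distance, voom on recovered reads and single libraries left out. Some list members are not reported here.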

Additional observations from a re-analysis of the deposited data

How the results depend on the processing

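On deposited values without centring 2539 regions (2034 promoter regions) were higher and 9 (1) lower, 4 of the 9 being lower in the fit reported, and after quantile normalisation 3373 (2037) were higher and 2723 (2420) lower. Of these 2723 lower regions, 716 were lower in the fit reported. Without the lowest quartile of values 2318 regions were lower, 674 of them lower in the fit reported. Centring on regions without H3K27me3 gave 2135 lower regions (529 promoter regions). Without the replicate block, pairing ignored, 5307 regions (3810 promoter regions) were higher and 1539 (391) lower. A difference limit of 2 gave 2730 (2107) higher and 434 (37) lower, and a limit of 0.5 gave 2309 lower promoter regions. Lower promoter regions numbered 1876 without the lowest quartile of values and 1511 with promoters drawn at 5 kb. In the counts of regions called higher, regions called lower, promoter regions called higher and promoter regions called lower, leaving out 1 replicate or library gave 233 to 6542 higher and 0 to 5179 lower regions, and 99 to 4392 higher and 0 to 2128 lower promoter regions. The lowest counts came without a total H3K4me3 library, at 527 higher and 0 lower regions (213 and 0 promoter regions) without replicate 1 and 233 and 3 (99 and 0) without replicate 2, the rest of that fit being unblocked. Lower promoter regions numbered 555 without replicate 1 and 1757 without replicate 2. With the block dropped as well, which alone gave 391, they numbered 257 without the replicate 1 reChIP. Calls shared by the clones as lower numbered 94 at the E14 regions themselves, 25 without a clone block, and 426 to 515 with 1 clone left out and no test. Alternatives on the clones were chosen after seeing the data. Quantile normalisation reversed Kmt2a to -1.23 and Psmd11 to -1.56, neither of them called in the fit reported. The cause of these changes was not tested. The replicate 1 reChIP held 0 reads in 760 regions, against 419 in the IgG library and 259 in the replicate 1 K27-K4 reChIP, both of them shallower.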
